A study of Mus musculus with 18 samples.

Results

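miR-193, miR-193b and miR-365 were followed across mammary tumours of 18 AKXD recombinant inbred strains. The rule took the unstarred rows of that name and found 3 of the 583 mature miRNA rows. All 3 passed the filter of a mean of at least 10 CPM, as did 281 of 571 distinct rows. CPM, the usual depth-normalised unit of counts, are given after scaling between libraries.

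AKXD strains descend from AKR/J and DBA/2J mice and are inbred for a mosaic of both genomes. Each strain was crossed to FVB/N-TgN(MMTV-PyVT)634Mul mice, in which the polyoma virus middle T oncogene is driven by the mouse mammary tumour virus promoter. Every sample is therefore F1 tumour RNA that carries the transgene and an FVB/N genome beside that of 1 strain. RNA from the mice of a strain was pooled into 1 library, which makes n = 1 for every strain and leaves differences between strains without a replicate check. The sources used here do not give ages or the number of tumours in a pool.

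miRNAs repress mRNAs that pair with their seed, the bases near the 5′ end. The Mir193b and Mir365-1 hairpins, and likewise Mir193a and Mir365-2, are neighbours in the genome and can be cut from a common primary transcript. In mouse mammary epithelium Mir193b is known as a target of STAT5, which relays prolactin signals, and as a restraint on stem and progenitor cell activity. miR-193b and miR-365 are also known from brown fat.

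The mature sequences show which of the 3 are relatives and which is made at 2 places. They are RefSeq sequences of GRCm38.p6, matched by name to the rows (3 of 3 found, with the older names miR-193 and miR-365 taken as miR-193a-3p and miR-365-3p), with bases 2 to 8, the seed, in capitals.
miR-193: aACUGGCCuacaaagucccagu
miR-193b: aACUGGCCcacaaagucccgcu
miR-365: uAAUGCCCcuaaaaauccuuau
miR-193 and miR-193b share the seed, and no further mature miRNA in the table of sequences has it. Over 22 bases they differ by U9C, A20G and G21C, with miR-193 first and positions counted from the 5′ end. The sources used here do not say how reads were counted, so reads that fit both could have been split between them. The seed of miR-365 was found in no other mature miRNA of that table.

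Both miR-365 hairpins are shown because they hold the same mature miRNA, in capitals, within different stems and loops.
Mir365-1: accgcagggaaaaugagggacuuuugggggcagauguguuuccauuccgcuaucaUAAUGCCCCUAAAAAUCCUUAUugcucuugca
Mir365-2: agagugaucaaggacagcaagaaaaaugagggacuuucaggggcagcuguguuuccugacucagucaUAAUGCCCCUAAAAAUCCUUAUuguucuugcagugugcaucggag
Reads of mature miR-365 cannot be assigned to either hairpin. In GRCm38, Mir193b (chromosome 16, 13449523 to 13449601) lies 4238 bases before Mir365-1 (13453840 to 13453926). Both are on the plus strand, between exons of the antisense RNA gene Gm15738, which runs along the minus strand. Mir193a (chromosome 11, 79711969 to 79712034) lies 14365 bases before Mir365-2 (79726400 to 79726511), also on the plus strand, and neither overlaps another gene of GENCODE M21. The authors' build is mm9, and the deposited table has no coordinates.

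Recovered miRNA reads numbered from 4360810 in the pool of strain 7 to 14962064 in that of strain 27. Libraries 10, 13, 14 and 20 stood apart from the rest: they were lowest on the first principal component, which held 27.6% of the variance of the 281 tested miRNAs. They also had the lowest scaling factors, down to 0.671 in strain 14, while strain 28 had the highest (1.67). Levels of miR-193, miR-193b and miR-365 had Spearman correlations of 0.57, 0.53 and 0.30 with that factor, and of 0.06, 0.01 and -0.05 with the number of reads (n = 18; the levels contain the factor). With the first principal component, rho was 0.53 for miR-193, 0.57 for miR-193b and 0.32 for miR-365 (n = 18). Pearson's r was 0.67, 0.73 and 0.34 in the same order. That component was computed from miRNAs that include these. The part of these library differences in the results below was not tested beyond the analyses without those strains. The tissue label was compared with luminal epithelial miRNAs, miR-375, miR-148a and the miR-200 family, whose 7 members summed to between 73243 and 126020 CPM in every pool. Of these, miR-148a had the highest mean (52534 CPM) and miR-375 the lowest (107 CPM). Skeletal muscle miRNAs were also present, with a sum of 4 members between 22345 and 303141 CPM. This sum was mostly miR-1, with a mean of 97304 CPM beside 3140 for miR-206, 289 for miR-133a and 30.6 for miR-133b. In such bulk RNA, fewer cells of a type and less RNA per cell cannot be told apart.

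miR-193b was the most abundant of the 3. Its level was 68.3 ± 26.1 CPM (SD, n = 18), which placed it at rank 158 of the 281 tested miRNAs. It was lowest in strains 13 (28.4 CPM) and 10 (28.8 CPM), followed by strains 9 (43.4 CPM), 7 (44.2 CPM), 20 (44.5 CPM) and 11 (45.5 CPM). Middle levels were found in strains 23 (56.7 CPM), 14 (57.3 CPM), 25 (65.6 CPM), 28 (68.0 CPM) and 3 (71.3 CPM). The highest levels were those of strains 21 (87.2 CPM), 2 (90.4 CPM), 16 (93.8 CPM), 18 (94.0 CPM), 22 (101.5 CPM), 24 (101.8 CPM) and 27 (107 CPM). The range was therefore 3.77-fold and nearly continuous: exact Poisson 95% intervals overlapped in 14 of the 17 pairs of strains that are neighbours in this order. These intervals cover counting error only.

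miR-193, from the sister hairpin, was at 40.1 ± 15.6 CPM (SD, n = 18; rank 188), with both extremes set by single strains. Strain 10 was lowest at 15.9 CPM (95% interval 13.4 to 18.8 CPM) and strain 27 highest at 88.8 CPM (84.1 to 93.6 CPM), a 5.59-fold range. Below the middle lay strains 23 (25.4 CPM), 20 (27.4 CPM), 7 (28.4 CPM), 13 (29.8 CPM), 14 (31.8 CPM), 21 (34.7 CPM), 9 (36.0 CPM) and 2 (38.0 CPM). Above it lay strains 11 (39.8 CPM), 28 (41.9 CPM), 16 (42.3 CPM), 3 (44.5 CPM), 18 (46.0 CPM), 22 (46.1 CPM), 24 (48.5 CPM) and 25 (57.1 CPM). Intervals overlapped in 14 of the 17 neighbouring pairs, and strains 10, 25 and 27 stood clear of their neighbours.

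miR-365 was the least abundant of the 3 and the most variable. It was at 26.1 ± 20.2 CPM (SD, n = 18; rank 212), with a median of 16.5 CPM below the mean. In 10 strains it lay between 8.70 and 16.6 CPM: strains 10 (8.70 CPM), 9 (10.3 CPM), 25 (11.8 CPM), 11 (13.4 CPM), 7 (14.4 CPM), 13 (14.6 CPM), 20 (15.1 CPM), 28 (16.1 CPM), 2 (16.4 CPM) and 21 (16.6 CPM). Then came strains 23 (23.0 CPM), 27 (28.7 CPM), 3 (29.0 CPM), 18 (30.1 CPM), 24 (39.4 CPM), 14 (39.4 CPM) and 16 (51.7 CPM). Strain 22 stood above all others at 91.5 CPM (95% interval 85.2 to 98.3 CPM), 0.81 log2 above strain 16, so that the range was 10.5-fold. Intervals overlapped in 12 of the 17 neighbouring pairs. Strain 10 was thus lowest or next to lowest for all 3, while the highest strain was 27 for both miR-193 forms and 22 for miR-365.

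**Figure D1:**
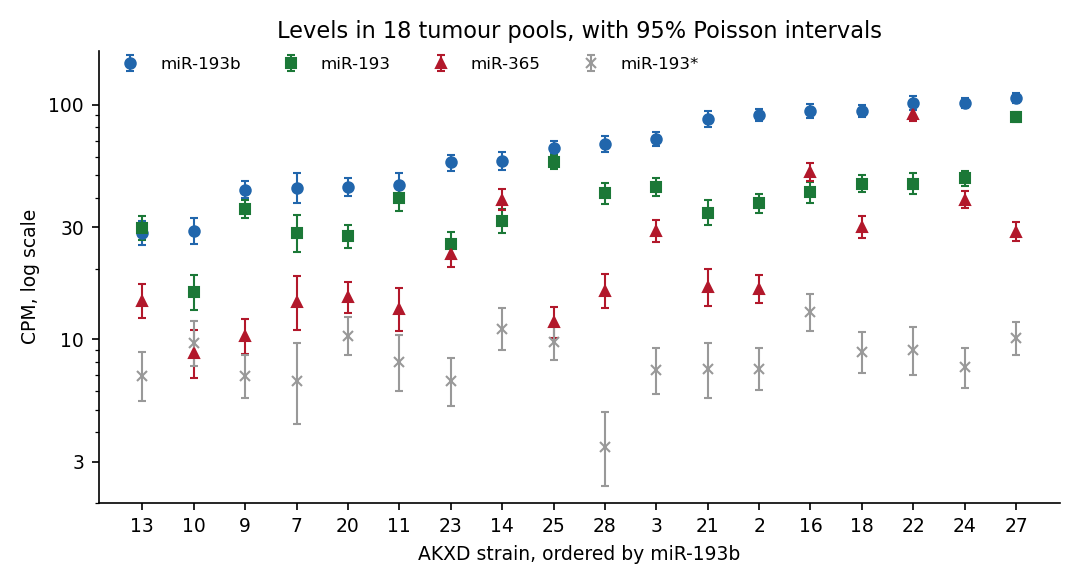
CPM (log axis) of miR-193b, miR-193, miR-365 and the other arm miR-193* in each of 18 strain pools, ordered by miR-193b; bars are exact Poisson 95% intervals from read counts. miR-193b runs from 28.4 to 107 CPM, and the triangle of strain 22 shows miR-365 at 91.5 CPM, close to miR-193b in that pool.

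The spread over strains was set beside that of all tested miRNAs. On the log2(CPM + 1) scale the SD was 0.51 for miR-193, 0.60 for miR-193b and 0.85 for miR-365, against a median of 0.45 over 281 miRNAs. Read counting alone gives an SD of 0.08, 0.06 and 0.11, so most of the spread lies beyond counting error. By SD, miR-365 was at rank 32 from the top, miR-193b at 75 and miR-193 at 107. Among the 87 other miRNAs within 2-fold of its abundance, 93.1% had a smaller SD than miR-365. A range of at least 4-fold, on CPM + 1, was reached by 2 of the 3, miR-193 (5.31-fold) and miR-365 (9.54-fold), and by 35.2% of all tested miRNAs. Without strain 10 or strain 27 miR-193 fell short of it (3.40-fold and 3.44-fold), and without strain 22 miR-365 had a range of 5.43-fold.

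**Figure D2:**
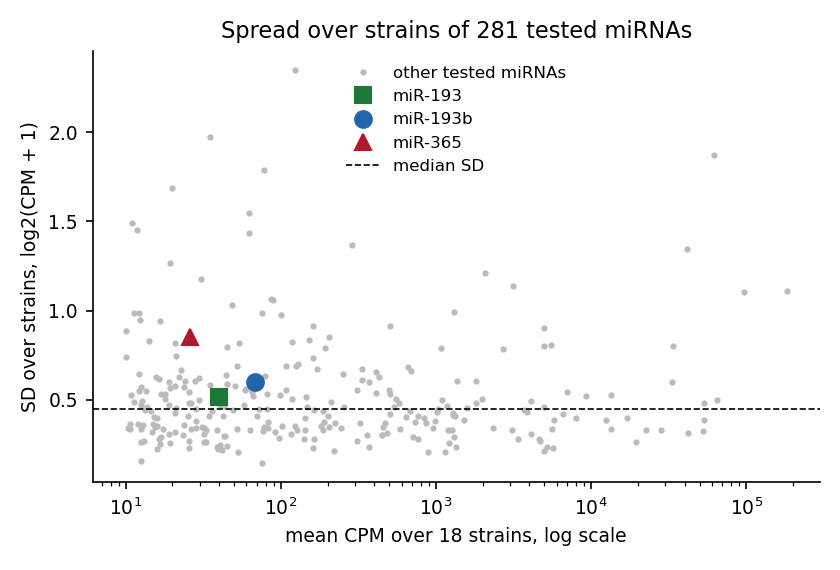
SD over 18 strains of log2(CPM + 1) against mean CPM (log axis) for 281 tested miRNAs, with the median SD of 0.45 as a dashed line. miR-365 lies at 0.85 among miRNAs of like abundance, and miR-193 (0.51) and miR-193b (0.60) lie nearer the line.

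Levels were next compared between the 3 within each pool; levels of different miRNAs also depend on how well each sequence is captured in a library. miR-193b exceeded miR-193 in 17 of 18 pools, by 1.74 ± 0.48 times (SD, n = 18), from 0.953 in strain 13 to 2.51 in strain 21. miR-365 was below miR-193b in all 18 pools. Its ratio to miR-193b was 0.374 ± 0.189 (SD, n = 18), lowest in strain 25 (0.180) and highest in strain 22 (0.901). miR-365 exceeded miR-193 in 3 pools, those of strains 14, 16 and 22. A pool with much miR-193b therefore did not always hold much miR-365: strains 2 and 21 had 90.4 and 87.2 CPM of miR-193b with 16.4 and 16.6 CPM of miR-365.

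The comparison of the neighbouring hairpins asks whether mature miR-365, which either locus can give, varied with miR-193b or with miR-193. Over the 18 strains miR-365 correlated with miR-193b (rho = 0.76, permutation p = 0.00052; r = 0.69, permutation p = 0.00179). For miR-193 the values were rho = 0.43 (permutation p = 0.0792) and r = 0.42 (permutation p = 0.0861). The difference of rho was 0.33 (permutation p = 0.0178, swapping the ranks of miR-193b and miR-193 within strains), and that of r was 0.27 (permutation p = 0.0526). miR-193 and miR-193b, on chromosomes 11 and 16, correlated as well (rho = 0.79, permutation p = 0.0002; r = 0.73, permutation p = 0.00026). In the scatter of miR-365 against miR-193b the strains spread as 1 cloud, and no separate clusters were visible in any of the 3 pairs.

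Each of the 3 was tested against all 280 other tested miRNAs with Benjamini-Hochberg adjustment, and of the adjusted p from either side of a pair the larger is given. Pairs called were miR-193 with miR-193b (adjusted p = 0.0119 in the permutation test) and miR-193b with miR-365 (adjusted p = 0.0392). miR-193 with miR-365 was not called (adjusted p = 0.336). Positive calls made up 7.50% of the 280 miRNAs against miR-193, 4.64% against miR-193b and 1.07% against miR-365. For miR-365, miR-193b ranked 3 of 280 by rho and miR-193 ranked 30. For miR-193, miR-193b ranked 6 and miR-365 ranked 50.

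With strains left out the correlations kept their sign, while sizes and calls changed. Without the 2 strains farthest from the median of the first-named miRNA, r was 0.62 for miR-193 with miR-193b (without 10 and 27), 0.64 for miR-193b with miR-365 (without 13 and 10) and 0.28 for miR-193 with miR-365 (without 10 and 27). Without strains 10, 13, 14 and 20, rho was 0.81 for miR-193b with miR-365 (permutation p = 0.00085, adjusted p = 0.199) and 0.68 for miR-193 with miR-193b (permutation p = 0.00866, adjusted p = 0.285). The difference of rho was then 0.41 (permutation p = 0.0258). Without strain 10 alone the call of miR-193 with miR-193b was lost (rho = 0.75, adjusted p = 0.0529). The call of miR-193b with miR-365 did not survive the omission of strain 2, 3, 9, 10, 11, 13, 16, 20, 22, 24 or 28 singly, with rho of 0.73 to 0.83 and adjusted p of 0.014 to 0.167 over the 18 omissions. Without strain 25, where miR-193 was high and miR-365 low, the difference of rho was 0.19 (permutation p = 0.0746).

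**Figure D3:**
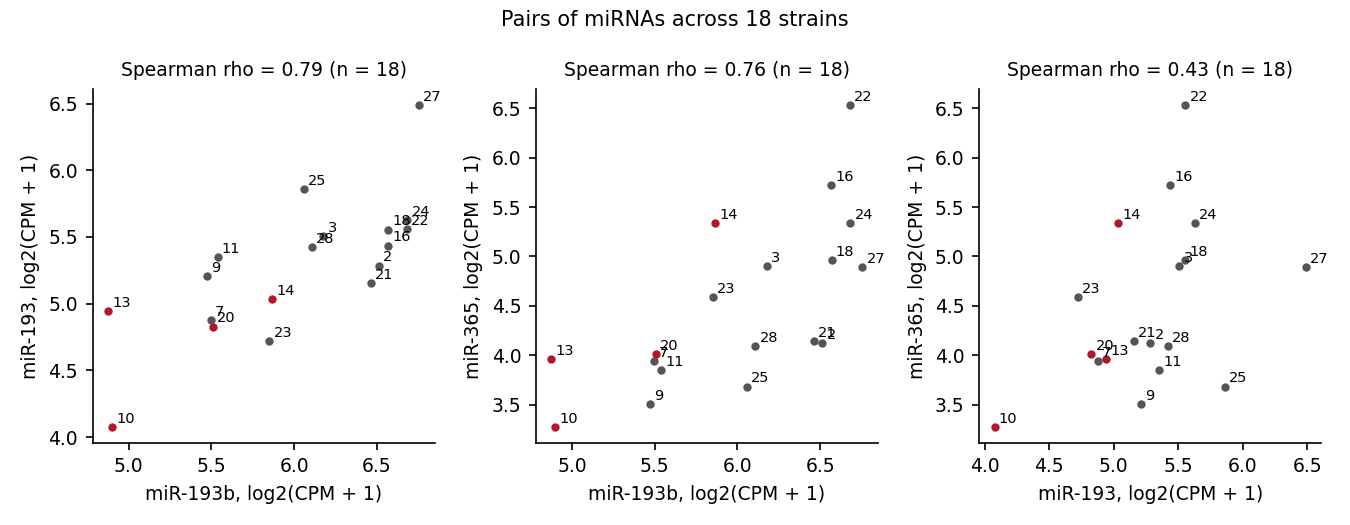
log2(CPM + 1) of each pair of miRNAs, 1 point per strain with its number; strains 10, 13, 14 and 20, which stand apart as libraries, are red. Points of miR-365 follow miR-193b (rho = 0.76) more closely than miR-193 (rho = 0.43), and strain 10 is at the low end in all 3 panels.

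The other arm of the Mir193a hairpin, miR-193*, was the only starred row of these hairpins used here. It was at 8.33 ± 2.13 CPM (SD, n = 18), below the filter, and ranged from 3.45 CPM (strain 28) up to 13.0 CPM (strain 16). In 17 of 17 neighbouring pairs of strains the Poisson intervals overlapped, with 27 to 157 reads. miR-193 was 5.13 ± 2.37 times as high (SD, n = 18), from 1.65 in strain 10 to 12.1 in strain 28. Over the strains the 2 arms gave rho = 0.26 (permutation p = 0.303) and r = 0.08 (permutation p = 0.73; r = 0.10 without strains 10 and 27). rho was 0.30 for miR-193b and 0.31 for miR-365 with miR-193* (adjusted over the 3 relations p = 0.303 for each). A relation between the arms was not detected over these pools. The SD of miR-193* on the log2(CPM + 1) scale was 0.36, and read counting alone gives 0.17. The part of read depth in the missing relation was not tested.

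The miRNAs with the most similar pattern were then named by rho. Against miR-193, 21 miRNAs were called with a positive and 17 with a negative correlation (7.50% and 6.07%). The closest was miR-22, which has been linked to mammary stem cell expansion, with rho = 0.88 (permutation p = 1e-05, the smallest that 100000 permutations give; adjusted p = 0.0028). miR-22 was at 334 ± 122 CPM (SD, n = 18), between 105 CPM (strain 10) and 603 CPM (strain 22). miR-582-5p (rho = 0.84), miR-500 (0.83), miR-15a (0.83), a repressor of the cell cycle and of BCL2, and miR-376b* (0.80), of the imprinted Dlk1-Dio3 cluster, completed the 5. Other miRNAs of that cluster had mixed signs: miR-136 and miR-376a* had rho of 0.74 each, and miR-379 and miR-134 had -0.61 and -0.48. The most opposite were miR-125b-3p (rho = -0.79), miR-1981 (-0.76) and miR-30e* (-0.74), each highest in strain 10. With libraries scaled by total counts alone none of these 3 was called (rho = -0.12 to -0.25).

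Against miR-193b, 13 miRNAs were called with a positive and 6 with a negative correlation (4.64% and 2.14%). miR-500, from an intron of the X-linked gene Clcn5, was closest (rho = 0.86, permutation p = 2e-05, adjusted p = 0.0056), and ran from 15.9 CPM (strain 10) up to 97.4 CPM (strain 22). miR-22 followed (rho = 0.83, adjusted p = 0.0056), then miR-193, miR-149 (rho = 0.78) and miR-365. From the same intron as miR-500, miR-188-5p, miR-501-3p, miR-532-5p and miR-532-3p had rho of 0.37, 0.19, 0.25 and -0.18, and none was called. The most opposite were miR-182 (rho = -0.78), miR-146b (-0.77), a miRNA induced by NF-kB, and let-7b (-0.73), of the let-7 family that is linked to differentiation. With total counts alone these 3 were not called either (rho = -0.15 to -0.48). For miR-146b, r was -0.25, with 941 CPM in strain 28 against a mean of 41728 CPM.

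Against miR-365, 3 miRNAs were called, all positive (1.07%; 0.00% negative), and 49 of 280 had an unadjusted permutation p under 0.05. They were miR-133a, a miRNA of skeletal and heart muscle (rho = 0.80, adjusted p = 0.0364), miR-23a (rho = 0.76, adjusted p = 0.0392) and miR-193b. In strain 10 both miR-133a (23.3 CPM) and miR-23a (157 CPM) were lowest. Their highest levels were 714 CPM (strain 24) and 901 CPM (strain 22). Cluster neighbours of miR-23a went the other way, with rho of -0.37 for miR-27a and -0.63 for miR-24 against miR-365. In the sister cluster miR-23b had rho of 0.51 and miR-27b -0.71. None of these neighbours and sister miRNAs was called by rho. The call of miR-133a did not survive the omission of strain 2, 9, 10, 13, 16, 20 or 24 singly (rho = 0.77 to 0.92 over the 18 omissions, adjusted p = 0.00278 to 0.121). That of miR-23a was lost when any 1 of these strains or of 11 and 22 was left out (rho = 0.72 to 0.82, adjusted p = 0.021 to 0.167), and with upper-quartile scaling (rho = 0.67, adjusted p = 0.121). miR-133b (rho = 0.74) and miR-434-3p (0.71) came next at an adjusted p = 0.0528, and miR-133b was called on omitting strain 11, 14, 18, 21, 22 or 27 singly. The most opposite, miR-340-3p (rho = -0.71), miR-27b (-0.71) and miR-330 (-0.65), were not called (adjusted p = 0.0528, 0.0528 and 0.115). By Pearson's r, 9 miRNAs were called with a positive and 9 with a negative correlation (3.21% each), the latter including these 3.

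The same miRNAs had unequal values against the 3, which are set side by side without a test, since all rest on the same libraries. miR-22 had rho of 0.88, 0.83 and 0.65 with miR-193, miR-193b and miR-365, and miR-500 had 0.83, 0.86 and 0.62. miR-133a had 0.40, 0.67 and 0.80, and miR-23a had 0.44, 0.71 and 0.76. miR-15a went the other way, with 0.83, 0.57 and 0.10, as did miR-582-5p, with 0.84, 0.51 and 0.11. Of these 6, miR-500 alone had its highest value with miR-193b.

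Strain 10 was the lowest or the highest of the 18 in 17 of the 22 miRNAs named by rank, the 3 members included. That count is not a result about these miRNAs. They were picked by rho with members that are lowest or next to lowest in strain 10, and the share over all tested miRNAs was not obtained. The calls did depend on strain 10. Without it, 8 miRNAs were called against miR-193, 2 against miR-193b and 0 against miR-365 (39 of 281 at an unadjusted permutation p under 0.05). The calls of miR-30e* and miR-1981 with miR-193, and of miR-149, let-7b, miR-146b and miR-182 with miR-193b, were lost without it (adjusted p = 0.0523 to 0.0849 in the permutation test). Without strains 10, 13, 14 and 20 the counts were 0, 0 and 0, with 27, 29 and 40 of 279 at an unadjusted permutation p under 0.05, and rho of miR-22 with miR-193 was 0.83 (adjusted p = 0.0656).

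**Figure D4:**
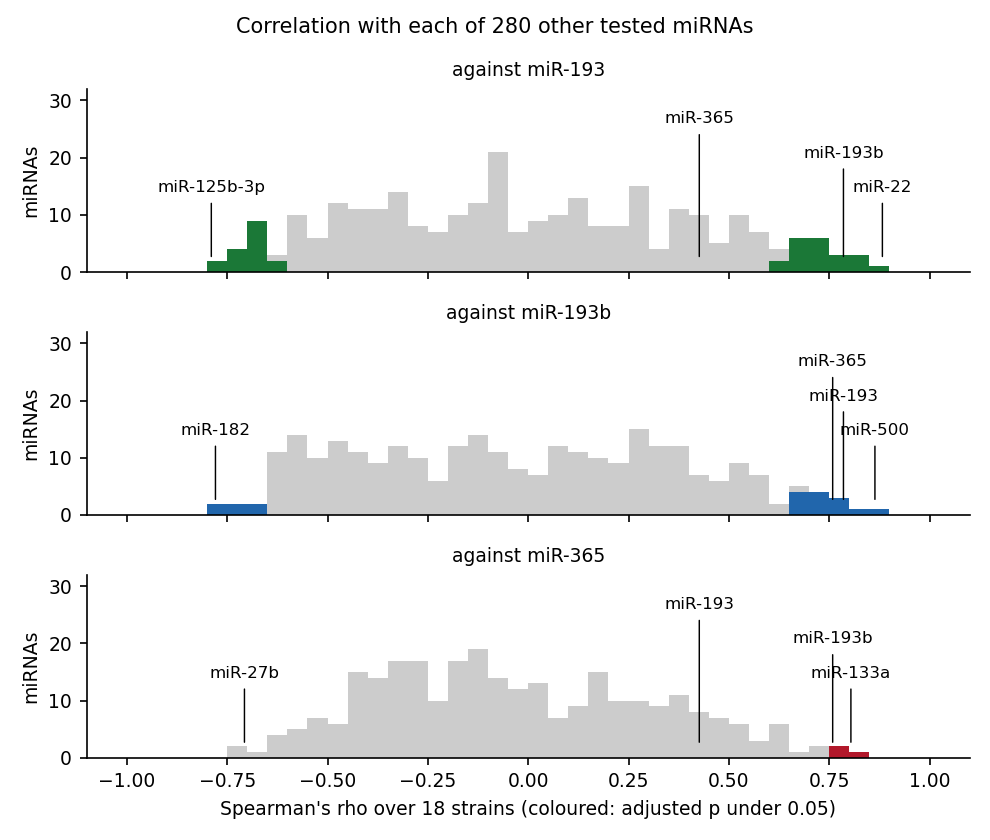
Histograms of Spearman's rho over 18 strains between each of the 3 miRNAs and 280 other tested miRNAs (y axis, number of miRNAs); coloured bars have an adjusted p under 0.05. 38 miRNAs are coloured for miR-193, 19 for miR-193b and 3 for miR-365, and miR-193b stands in the upper tail of both others.

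The 3 were finally compared with 8 lists of miRNAs, scored by averaging the centred log2(CPM + 1) of their members. Of the 24 relations, 0 were called by rho or by r after adjustment over the 24, and 4 by rho and 6 by r had an unadjusted permutation p under 0.05. The list of 12 miRNAs of mammary progenitors and differentiation gave the lowest values: rho = -0.57 with miR-193b (permutation p = 0.0144, adjusted p = 0.115; r = -0.53, and -0.38 without strains 13 and 10) and rho = -0.60 with miR-365 (permutation p = 0.00969, adjusted p = 0.115; r = -0.49, and -0.38 without strains 22 and 16). With libraries scaled by total counts alone both were positive, rho = 0.65 (adjusted p = 0.019) and 0.40 (adjusted p = 0.143). For miR-193 rho was -0.23 (adjusted p = 0.519). The list joins miRNAs linked to stem or progenitor cells, such as miR-22 and miR-205, with others linked to differentiation, such as let-7c. The sign of a relation to its score therefore does not point to either kind.

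Within that list the members did not move as a block. Against miR-193b, 1 of 12 was called positive, miR-22, and 3 of 12 negative, beside 4.64% and 2.14% of all tested miRNAs. The 3 were let-7c (rho = -0.69), miR-183 (-0.67) and miR-182 (-0.78), the last 2 of the miR-183 cluster. miR-96, of the same cluster, had rho = 0.21 (adjusted p = 0.596). Against miR-193, miR-22 was called positive and let-7c negative (rho = -0.70), 1 of 12 each beside 7.50% and 6.07% of all tested, and against miR-365 none of the 12 was called. By Pearson's r let-7c was not called (r = -0.31 with miR-193 and -0.32 with miR-193b, adjusted permutation p = 0.303 and 0.33). let-7c was the most abundant of the list (mean 182277 CPM). The list summed to 62917 CPM in strain 28 against a median of 234652 CPM, and its score was lowest there (-0.40). The part of strain 28 in the gap between rho and r was not tested. The median rho of the list was -0.37 with miR-193b and -0.37 with miR-365, beside -0.04 and -0.08 over all tested miRNAs. miR-205, of basal and progenitor cells, had rho of -0.21, 0.23 and 0.24 with miR-193, miR-193b and miR-365, and none was called.

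Lists of other cell types followed. The muscle score had rho = 0.59 with miR-365 (permutation p = 0.0123, adjusted p = 0.115; r = 0.60, and 0.75 without strains 22 and 16). With total counts alone it was called (rho = 0.63, adjusted p = 0.0193). Of its 4 members 1, miR-133a, was called against miR-365, beside 1.07% positive calls over all tested miRNAs, and miR-1 and miR-206, the more abundant ones, had rho of 0.36 and 0.37 (adjusted p = 0.404 and 0.401). Against miR-193b, 2 of 4, miR-133a and miR-133b, were called (rho = 0.67 and 0.71; 4.64% over all tested), and miR-1 and miR-206 were near 0 (0.12 and -0.01). The mesenchymal score had rho = 0.51 with miR-365 (permutation p = 0.0307, adjusted p = 0.184; r = 0.54, and 0.52 without strains 22 and 16), and it too was called with total counts alone (rho = 0.73, adjusted p = 0.00558). Of the 6 listed mesenchymal miRNAs, 4 were tested, and none was called against miR-365. miR-143, the most abundant of them, had rho = -0.15 with miR-365, and miR-199a-3p, miR-145 and miR-214 had 0.47, 0.37 and 0.30. Against miR-193, miR-143 was called with a negative sign (rho = -0.69, beside 6.07% negative calls over all tested miRNAs). The part of muscle or stroma in the levels of miR-365 was not tested.

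The leukocyte, erythroid, brown adipose, luminal and basal lists had no relation at an unadjusted permutation p of rho under 0.05. Among these, the leukocyte score had rho of 0.44, 0.47 and 0.34 with miR-193, miR-193b and miR-365, and for miR-193 r was 0.58 (permutation p = 0.0133, adjusted p = 0.109) but 0.07 without strains 10 and 27. The luminal score had rho of -0.12, -0.46 and -0.45. For miR-193b its r was -0.53 (permutation p = 0.0224, adjusted p = 0.109), and -0.31 without strains 13 and 10. The miR-200 family is also in the mammary progenitor and differentiation list, so these scores are not separate. The brown adipose list, miR-203, miR-182, miR-455, miR-378 and miR-196a, had rho of -0.29, -0.22 and -0.20 (adjusted p = 0.398, 0.519 and 0.542). Of its 5 members 1, miR-182, was called negative against miR-193b (rho = -0.78, adjusted p = 0.014), beside 2.14% of all tested miRNAs. miR-182 is also in the mammary progenitor and differentiation list.

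**Figure D5:**
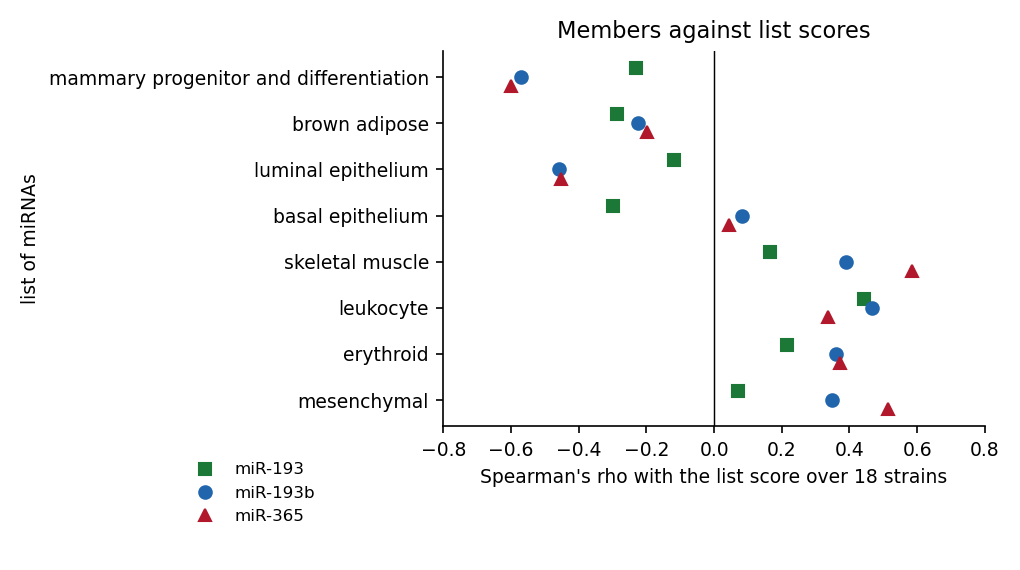
Spearman's rho over 18 strains between each of the 3 miRNAs and the score of 8 lists (y axis). Values run from -0.60 (miR-365 with the mammary progenitor and differentiation list) to 0.59 (miR-365 with skeletal muscle), and 0 of the 24 passed adjustment.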

How the data were processed

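Tumour RNA of 18 pools was extracted with the mirVana kit, and its small RNA was read on a Genome Analyzer IIx, per the labels. BWA and mm9 are named per the submitters' processing notes; the sources used here do not give the counter, miRNA annotation or filters. The authors deposited log2 values. From the values, 2 to the power of each is whole reads times 1 constant per library (0.999 to 1.39): 100% of 3813 values of up to 50 reads, within 0.006 log2, with rows without reads at 0. Reads were recovered from these constants. The 8 sets of rows with identical values (20 rows) were counted once each. Scaling used a trimmed mean of M values (30% and 5% trimmed). log2 was taken after adding 1 CPM, so that changes of low miRNAs are understated.

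Spearman's rho and Pearson's r were given two-sided p-values by permutation with 100000 resamples, with a threshold of 0.05 after Benjamini-Hochberg adjustment. The procedure was checked on simulated data in which unrelated miRNAs were independent of each other and the scaling was known. That check does not cover differences that many miRNAs of a library share, as in these data. Each strain has 1 library, so a p-value here refers to the spread over these pools. No batch is given in the labels. Named miRNAs are the 3 members, the starred row of their hairpins, the 5 highest and 3 lowest by rho for each member, and abundant or called members of the lists described. Cluster neighbours of some of these are named as well. The members, lists and tests were chosen with earlier results of these data known. Alternatives were other scalings, filters and pseudocounts, Pearson's r, and strains left out. Python 3.11.15, numpy 2.4.6, pandas 2.3.3, scipy 1.17.1 and matplotlib 3.10.9 were used.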

Additional observations from a re-analysis of the deposited data

How the results depend on the processing

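The 3 pairwise correlations and the difference of rho kept their sign in every alternative run. For the runs with other pseudocounts or with no filter this was fixed in advance, since neither changes the ranks of strains within a miRNA. Calls depended on scaling and strains. With total counts alone, 128, 136 and 26 miRNAs were called against miR-193, miR-193b and miR-365 (38, 19 and 3 as reported), and 10 of 24 list relations in place of 0. Under this scaling the negative relations of the mammary progenitor and differentiation list to miR-193b and miR-365 became positive (rho = 0.65 and 0.40). The range of miR-193b was then 5.996-fold and that of miR-365 16.2-fold. With median-of-ratios scaling 31 were called against miR-193b and 8 against miR-365, with upper-quartile scaling 1 and with no filter 7 against miR-365. Under upper-quartile scaling the call of miR-193b with miR-365 was lost (rho = 0.73, adjusted p = 0.0849), and by Pearson's r the difference was 0.27 (permutation p = 0.0526), with 59, 65 and 18 miRNAs called. Without strains 10, 13, 14 and 20, and without these and strain 28, 0 were called against any of the 3 (27, 29 and 40 at an unadjusted p under 0.05 in the former case, 28, 28 and 40 in the latter); rho was 0.68 and 0.69 for miR-193 with miR-193b, and 0.81 and 0.78 for miR-193b with miR-365 (adjusted p = 0.285, 0.338, 0.199 and 0.242). These analyses have fewer strains to test. Leaving out each strain in turn gave rho of 0.75 to 0.84 for miR-193 with miR-193b, 0.73 to 0.83 for miR-193b with miR-365 and 0.32 to 0.61 for miR-193 with miR-365, a difference of 0.19 to 0.41, 8 to 40, 2 to 30 and 0 to 13 called miRNAs, and 0 to 1 list relations (1 without strain 11). The count against miR-193 moved over 1.5 times without strains 10, 13 (22) or 20 (23), and against miR-193b without strains 9 (30), 10, 13 (9) or 20 (10). The 0 counts against miR-365 came without strains 2, 9, 10, 13, 16, 20 or 24, and counts of 6 to 13 without strains 7, 14, 18 or 27. The cause of these changes was not tested. With another random draw of permutations, added after the data had been seen, 38, 18 and 4 were called, the last with miR-133b (adjusted p = 0.0406 against 0.0528), and no other named result changed its call. Pseudocounts of 0.5 and 5 CPM changed no call, but calls by rho between single miRNAs could not change, since ranks do not depend on a pseudocount. A filter at 100 CPM removes all 3 miRNAs, so no value was obtained there. No paired analysis was possible because each strain has 1 library and no replicates.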
